A study of Caenorhabditis elegans with 4 samples.

Results

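The genes described here are the Hedgehog-like and patched-related genes of the nematode Caenorhabditis elegans. Members were taken by symbol: every gene whose name starts with wrt-, grd-, grl-, ptr- or ptc-, plus qua-1 and hog-1. This gave 85 of the 20392 genes in the deposited count table. Of these, 59 are ligand-like: 10 wrt (warthog), 16 grd (groundhog) and 31 grl (ground-like) genes, with qua-1 (quahog) and hog-1. The other 26 are patched-related, with 24 ptr genes and 2 ptc genes.

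RNA was sequenced from first-stage (L1) larvae in 4 libraries, 2 of wild-type strain N2 fed bacteria with the empty RNAi vector L4440 and 2 of strain GW1183, genotype met-1-/-, fed bacteria for RNAi against mes-4 (the mutant libraries below, written met-1 mes-4(RNAi) in the plots). Both met-1 and mes-4 encode histone methyltransferases. All larvae had parents grown on the RNAi bacteria for 60 to 65 h at 20 °C, hatched without food over 18 h, and were then refed the same bacteria for 2 h 30 min. The mutation, the strain and the RNAi changed together, so their parts cannot be told apart, and each library is RNA of whole larvae pooled from many animals.

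In flies and vertebrates Hedgehog is a secreted protein that is cleaved by its own C-terminal Hint (Hog) region and binds Patched, a membrane protein with a sterol-sensing domain. C. elegans has no clear Hedgehog or Smoothened ortholog. It has instead a large set of secreted proteins with Wart, Ground or Ground-like domains, some joined to a Hint region, and an expanded set of patched-related membrane proteins. Genes of both kinds are known for work in the epidermis and its cuticle, in molting and in glia.

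Library totals ran from 29081819 counts in mutant replicate 1 to 35106597 in its replicate 2, with both wild-type libraries between. The filter on low counts left 15008 genes, which were tested. Levels are CPM (counts scaled to the library total), with TMM scaling between libraries. The targeted genes were still read in the mutant libraries: met-1 was at 168.4 ± 4.96 CPM in wild type and 113.1 ± 2.47 CPM in mutant larvae, and mes-4 at 35.8 ± 2.18 and 27.3 ± 1.48 CPM (mean ± SD, n = 2). Neither passed edgeR's quasi-likelihood test (adjusted p = 0.111 and 0.267); DESeq2 called met-1 (adjusted p = 0.00390) but not mes-4 (adjusted p = 0.337).

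By summed CPM, which rises with gene length, patched-related genes held most of the members' reads. Summed over all members, they held 1336 and 1216 CPM in wild-type replicates 1 and 2, and 1252 and 1101 CPM in mutant replicates 1 and 2. The ligand-like genes held 216.2, 246.1, 307.7 and 292.9 CPM in the same order, although they are more than the patched-related genes in number. Corrected for gene length (RPKM), the patched-related sums were 348.6, 327, 334.2 and 296.7 in that order. The ligand-like sums were then 287.6, 375.9, 399.8 and 444.4, so the order of the classes turned in all but wild-type replicate 1. In whole larvae, fewer cells of a type and less RNA per cell cannot be told apart. All 26 patched-related genes passed the filter on low counts, whereas 40 of the 59 ligand-like genes did. On log2 CPM, the median tested ligand-like gene was 2.52 to 3.46 units below the median patched-related gene, depending on the library. This gap is not corrected for gene length. The RPKM medians were 1.42 for ligand-like and 3.85 for patched-related genes (mean of the 4 libraries), a narrower gap.

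The 19 members that did not pass are all ligand-like. They are 15 grl genes, among them grl-25 to grl-31, with grd-4, grd-8, grd-15 and wrt-7. None had more than 15 reads in any library, and grl-27, grl-29 and grl-30 had 0 reads in all 4. A count of 0 allows up to 3 reads, which is 0.0855 to 0.103 CPM in these libraries. They were left out of the tests reported here.

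Corrected for gene length (RPKM, mean of the 4 libraries), the most abundant member was the ligand-like grd-10, at 138, whose promoter is widely used to mark the seam cells of the epidermis. It was followed by ptc-1, a Patched homolog needed for cytokinesis in the germline, at 95.1. Next came grd-13 at 59.2, grd-3 at 42.9 and grl-4 at 40.1, and then ptr-12 at 34.9, ptr-21 at 29.7 and ptr-23 at 25.9; ptr-23 is known from work on the response to osmotic stress. The other ptc gene, ptc-3, which is essential in larvae, was at 22.8. The median was 1.42 for the tested ligand-like genes, 3.85 for the patched-related genes and 9.83 for all genes tested.

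**Figure D1:**
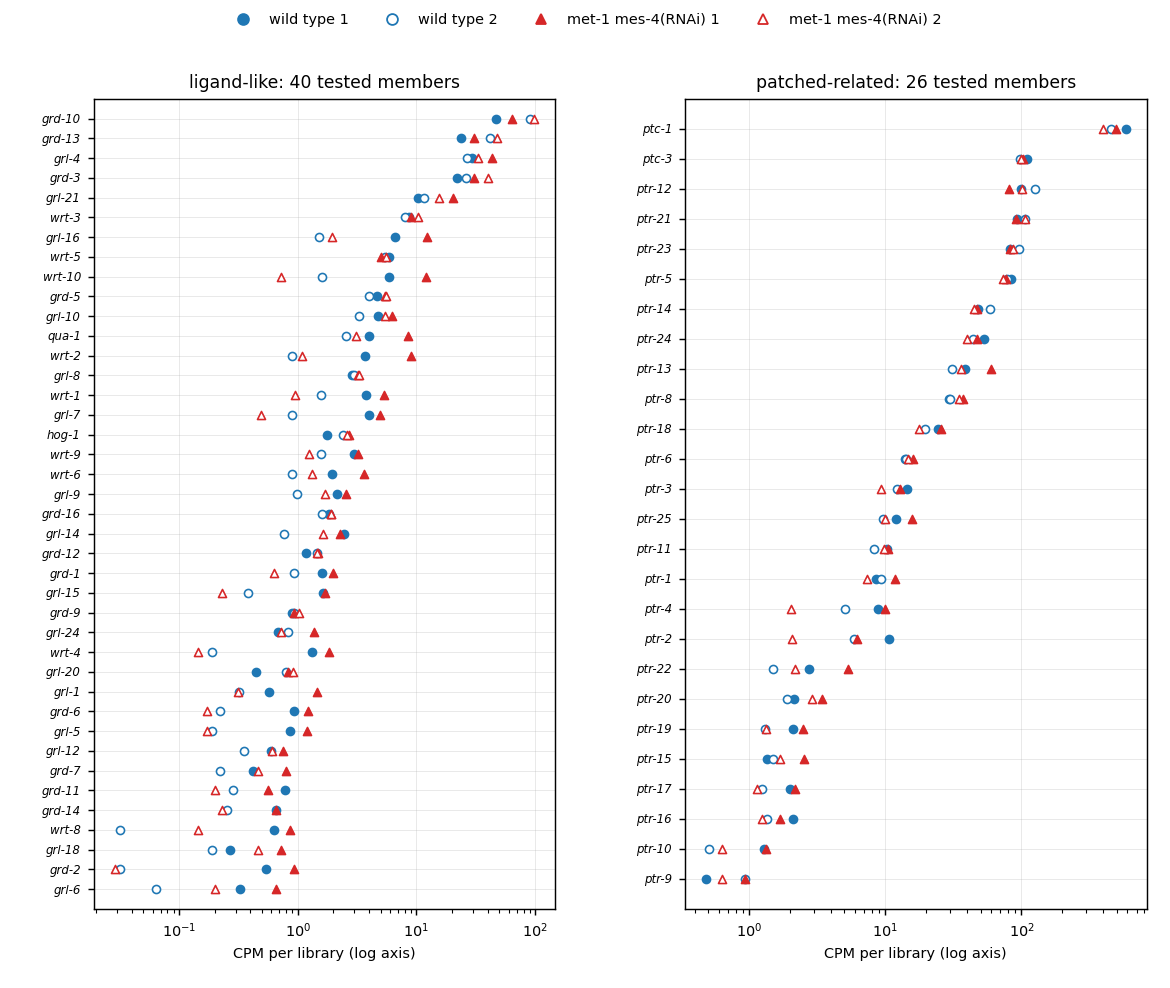
Level of each tested member in the 4 libraries (CPM, log axis), with ligand-like and patched-related genes in separate panels. Each point is 1 library, with groups and replicate numbers marked; ptc-1 lies highest, and most ligand-like genes lie far below the stronger patched-related genes.

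The neighbouring genes grd-3, grd-10 and grd-13 on chromosome IV carried much of the ligand-like RNA. They held 43.0% of the summed ligand-like CPM in wild-type replicate 1 and 64.5% in wild-type replicate 2, and 40.5% and 63.8% in mutant replicates 1 and 2. Without them the ligand-like sum was 123.2 and 183.1 CPM in the replicate 1 libraries of wild type and mutant, and 87.3 and 106.2 CPM in the replicate 2 libraries. Each replicate 1 library was thus above the replicate 2 library of its own group once these genes were set aside. With them included, wild type had the opposite order.

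The first comparison asks whether the members differed between mutant and wild-type larvae. With replicate number left out of the model, no member passed edgeR's test, and nor did any of the 15008 genes (0% called). At an unadjusted p under 0.05, edgeR picked 2185 genes (14.6%) but only 3 members, grl-21, grd-3 and grl-4, all higher in mutant larvae. All genes that were higher at this p made up 7.74%. DESeq2 called 655 genes (4.36%), none of them a member, and had 3 members at an unadjusted p under 0.05, against 12% of all genes. The smallest adjusted p of a member was 0.205 in edgeR and 0.122 in DESeq2, both for grl-21.

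Among the ligand-like genes, grl-21 was at 10.4 and 11.5 CPM in wild type and at 20.3 and 15.4 CPM in mutant larvae. GRL-21 is known for a role in lipid storage together with the patched-related PTR-24. The groups did not overlap, and the fitted log2 difference was 0.70 ± 0.19 (SE). The level of grl-4 was 29.4 and 26.4 CPM in wild type and 43.3 and 33.0 CPM in mutant larvae, a log2 difference of 0.45 (adjusted p = 0.341). For grd-3 the values were 21.8 and 26.4 CPM against 30.4 and 40.5 CPM, a log2 difference of 0.56 (adjusted p = 0.295). Both were higher in each mutant library than in either wild-type library. A weak gene, grl-18, known for expression in glia, had 0.27 and 0.19 CPM in wild type and 0.73 and 0.46 CPM in mutant larvae, a log2 difference of 1.34 (adjusted p = 0.344); it passed the filter only through the mutant libraries.

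Among the patched-related genes, ptr-8 was at 29.3 and 29.8 CPM in wild type and 37.0 and 34.6 CPM in mutant larvae (log2 difference 0.28, adjusted p = 0.390). The level of ptr-20 was 2.13 and 1.88 CPM against 3.40 and 2.87 CPM (log2 difference 0.64, adjusted p = 0.362). In both genes the groups were separate. PTR-2, which helps to form the permeability barrier of the eggshell, had the widest negative difference of any member: ptr-2 was at 10.6 and 5.84 CPM in wild type and 6.20 and 2.07 CPM in mutant larvae, a log2 difference of -0.99 (adjusted p = 0.518). Its groups overlapped, since the mutant replicate 1 library lay above wild-type replicate 2. In the WBcel235 annotation 19 of the tested members share exon bases with another gene, among them ptr-8, ptr-10, hog-1, wrt-2, grl-1, grl-8, grl-9 and grl-15 on the opposite strand and wrt-3, over 1002 bases, on the same strand. Whether counting used strand is not given in the sources used here, so their counts may hold reads of that neighbour. For wrt-3 the count table gave a length of 774 bases, against 2438 in WBcel235. The 1002 shared bases thus cannot all lie in the gene model that was counted.

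The ligand-like genes leaned to higher values in mutant larvae as a class, but the lean varied with the library. Their median log2 difference was 0.36, with 35 of 40 above 0, while the patched-related median was 0.01, with 13 of 26 above 0, and the median of all genes was 0.01. The ligand-like median was 0.93 without wild-type replicate 1 and 0.69 without mutant replicate 2. Leaving out wild-type replicate 2 gave 0.17, and leaving out mutant replicate 1 gave -0.03. The patched-related median was 0.11 and -0.10 without wild-type replicates 1 and 2, and -0.16 and 0.20 without mutant replicates 1 and 2, so its sign also depended on the library left out. Weak genes in general also had values above 0: among all tested genes with a mean under 5 CPM the median log2 difference was 0.24, and the ligand-like genes at that level had 0.34.

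Groups without overlap were found in 19 of 66 members, against 44.9% of all genes tested. Of the 40 ligand-like genes, 13 had both mutant libraries above both wild-type libraries and 0 had the reverse order. Among all genes these shares were 22.7% and 22.2%. The 13 hold grl-18, which passed the filter through the mutant libraries alone, so its order was fixed in advance here and in the class values above. Most of the ligand-like genes are weak, and among all genes with a mean under 5 CPM the shares were 33.4% and 12.1%. Of the 26 patched-related genes, 4 lay above and 2 (ptr-5 and ptr-14) below. Taken within a replicate number, the median ligand-like difference was 0.42 log2 units in replicate 1, with 37 of 40 above 0, and 0.17 in replicate 2, with 25 of 40 above 0. The 2 numbers gave the same sign for 24 of 40 ligand-like and 20 of 26 patched-related genes, against 72.4% of all genes.

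**Figure D2:**
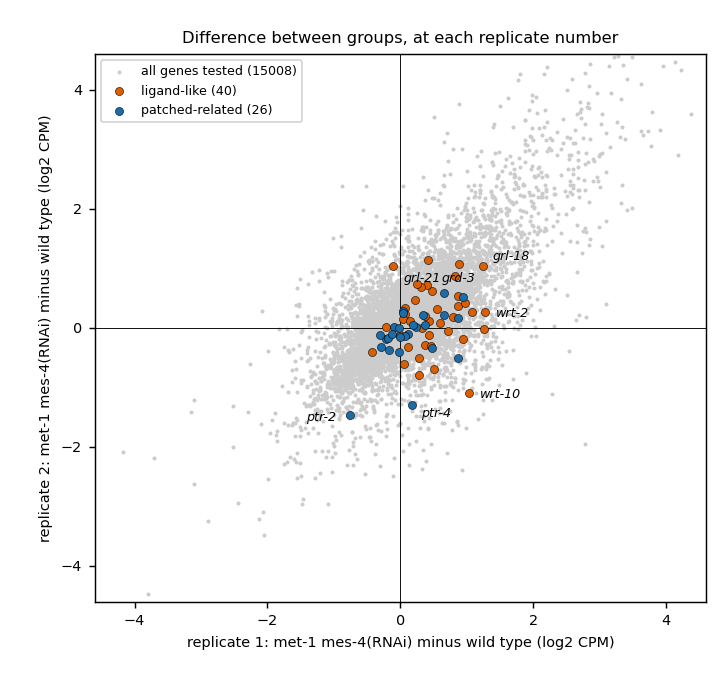
Difference between mutant and wild-type larvae (log2 CPM) in the replicate 1 libraries (x axis) and the replicate 2 libraries (y axis). Each point is 1 gene, with members in colour; 16 other genes lie beyond the axis limit of 4.6, and the ligand-like genes spread mainly to the right of 0.

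The second comparison sets the replicate 2 libraries against the replicate 1 libraries, with group in the model. The labels do not say what a replicate number stands for beyond an independent biological replicate, so it compares 2 libraries with 2 libraries. Here many members differed. edgeR called 28 of 66 members, 24 lower and 4 higher in replicate 2, against 18% of all genes, with 10.4% lower and 7.61% higher. DESeq2 called 12 members lower and 2 higher, against 5.07% and 3.06% of all genes, or 8.13% in either direction.

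The ligand-like genes gave 16 lower and 3 higher of 40, and the patched-related genes 8 lower and 1 higher of 26. Libraries of the 2 numbers did not overlap, with replicate 2 lower, in 21 ligand-like and 15 patched-related genes (22.1% of all genes), and with replicate 2 higher in 3 of each class (22.2% of all genes; 44.4% in either direction). The median log2 difference was -0.92 for ligand-like and -0.27 for patched-related genes, against 0.01 for all genes. In wild type alone the ligand-like and patched-related medians were -0.74 and -0.26, and in mutant larvae alone -0.80 and -0.44. A replicate 2 library at least 2-fold below the replicate 1 library, in both groups, was seen in 15 ligand-like and 0 patched-related genes, against 3.34% of all genes tested.

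These ligand-like values depend in part on the filter. A gene that is weak in replicate 2 can pass it on the strength of replicate 1 alone, and 8 ligand-like genes (grd-2, grd-6, grd-11, grd-14, grl-5, grl-6, wrt-4 and wrt-8) passed only that way, so that they had to be lower in replicate 2. Without the genes that passed that way, a choice made after seeing the data, edgeR's calls left 11 of 32 ligand-like and 8 of 26 patched-related genes lower, against 9.88% of the genes left. The count of genes at least 2-fold lower in both groups was then 7 ligand-like and 0 patched-related, against 2.56%. The ligand-like median became -0.45, with -0.46 in wild type and -0.43 in mutant larvae, where the patched-related median was -0.44. With a filter of 5 CPM in 2 libraries the order of the classes turned, to -0.14 for ligand-like and -0.28 for patched-related genes. Only 29 members passed it, among them the neighbours grd-3, grd-10 and grd-13. That filter too can be passed through replicate 1 alone, as it was by grl-16 and wrt-10. Whether the classes differ was not tested.

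**Figure D3:**
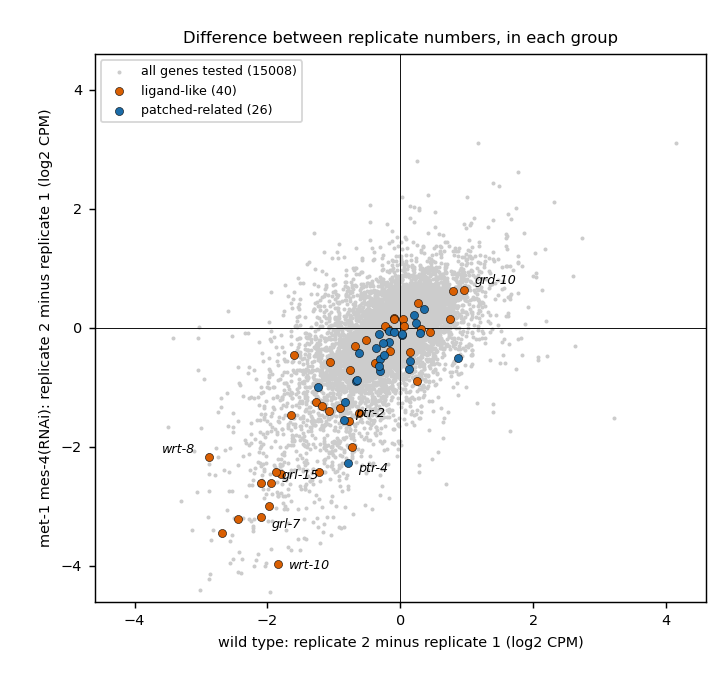
Replicate 2 minus replicate 1 (log2 CPM) in wild type (x axis) and in mutant larvae (y axis). Each point is 1 gene, with members in colour; 15 ligand-like genes lie below -1 on both axes, 7 of them without those that passed the filter through replicate 1 alone, and no patched-related gene does.

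Most wrt genes fell. Of 9 tested, 7 were called lower in replicate 2 (wrt-1, wrt-2, wrt-4, wrt-6, wrt-8, wrt-9 and wrt-10), and the median log2 difference was -1.86. Without wrt-4 and wrt-8, which passed the filter through replicate 1 alone, 5 of 7 were called lower and the median was -1.30. Of all 9 tested, DESeq2 called 4, which were wrt-1, wrt-2, wrt-10 and the wrt-4 just set aside. It gave adjusted p = 0.106 for wrt-6, adjusted p = 0.123 for wrt-9 and none for wrt-8. In wrt-2 the replicate 1 libraries had 3.71 CPM in wild type and 9.07 CPM in mutant larvae, and the replicate 2 libraries 0.893 and 1.09 CPM. This is a log2 difference of -2.62 ± 0.28 (SE) (edgeR adjusted p = 0.00103, DESeq2 adjusted p = 1.65e-07), and both replicate 2 libraries were well below both replicate 1 libraries. WRT-10, a secreted protein of the epidermis that acts on oocyte quality through PTC-1 and PTR-2, gave the same picture: wrt-10 was at 5.87 and 12.1 CPM in replicate 1 and at 1.60 and 0.718 CPM in replicate 2, wild type first (log2 difference -2.91, edgeR adjusted p = 0.00355). Its neighbour on chromosome II, wrt-1, was at 3.74 and 5.34 CPM in replicate 1 and 1.56 and 0.947 CPM in replicate 2 (-1.86, adjusted p = 0.00653).

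The remaining wrt genes that were tested showed no such step. The level of wrt-3 was 8.60 and 9.07 CPM in replicate 1 and 8.07 and 10.2 CPM in replicate 2, and that of wrt-5 was 5.84 and 5.01 against 5.46 and 5.54 CPM. Their fitted log2 differences were 0.04 and 0.02, with adjusted p = 0.861 and 0.944 in edgeR. Their libraries overlapped between the numbers. For wrt-4 and wrt-8 the low values rest on few reads: wrt-4 had 44 and 56 reads in replicate 1 and 6 and 5 in replicate 2, and wrt-8 had 21 and 26 against 1 and 5.

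Among the grl genes 5 of 16 fell (grl-1, grl-5, grl-7, grl-15 and grl-16), with a family median of -0.71, or 4 of 14 and -0.56 without grl-5 and grl-6. DESeq2 did not call grl-1 (adjusted p = 0.354) or grl-5 (adjusted p = 0.0823). The smallest adjusted p of any member in edgeR was that of grl-16, at 6.62 CPM in wild type and 12.2 CPM in mutant larvae in replicate 1, and at 1.499 and 1.95 CPM in replicate 2 (log2 difference -2.41 ± 0.20, edgeR adjusted p = 0.00043, DESeq2 adjusted p = 1.98e-10). For grl-7 the values were 4.01 and 4.91 CPM against 0.893 and 0.488 CPM (-2.70 ± 0.32, edgeR adjusted p = 0.00163). In both genes every replicate 1 library had more than 2-fold the level of its group's replicate 2 library. The most abundant grl gene, grl-4, differed by -0.27 (adjusted p = 0.0820), and grl-21 by -0.14 (adjusted p = 0.552).

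The grd family split. The abundant neighbours grd-10, grd-13 and grd-3 rose in replicate 2, while edgeR called grd-1, grd-2 and grd-6 lower, and the family median was -0.10. DESeq2 called none of these 3 (adjusted p = 0.274 for grd-1, 0.0795 for grd-6 and none for grd-2). For grd-10 the replicate 1 libraries held 47.2 CPM (wild type) and 63.3 CPM (mutant), and the replicate 2 libraries 91.2 and 98.7 CPM, a log2 difference of 0.79 ± 0.09 (edgeR adjusted p = 0.0015, DESeq2 adjusted p = 9.56e-07). For grd-13 the levels were 23.9 and 30.8 against 41.3 and 47.6 CPM (0.71 ± 0.09, edgeR adjusted p = 0.00222). Both were higher in each replicate 2 library than in either replicate 1 library. The call for grd-3 was weaker (0.34, edgeR adjusted p = 0.0355) and was lost in DESeq2 (adjusted p = 0.210), when only library size was used for scaling (adjusted p = 0.0753) and with the 5 CPM filter (adjusted p = 0.0676).

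The grd genes called lower are weak ones. The gene grd-2 had 18 and 28 reads in replicate 1 and 1 read in each replicate 2 library, and grd-6 had 31 and 37 reads against 7 and 6. With so few reads no fold is given. Without the 4 grd genes that passed the filter through replicate 1 alone, 1 of 9 (grd-1) was called lower and the family median turned to 0.10.

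Of the Hint-region genes outside these families, qua-1 fell and hog-1 was not called. QUA-1 is needed for molting, and qua-1 was at 3.95 CPM in wild type and 8.44 CPM in mutant larvae in replicate 1, and at 2.55 and 3.10 CPM in replicate 2 (log2 difference -1.07 ± 0.23, edgeR adjusted p = 0.0175). Both replicate 2 libraries were lower than both replicate 1 libraries. The level of hog-1 was 1.77 and 2.70 CPM in replicate 1 and 2.42 and 2.58 CPM in replicate 2 (0.18, adjusted p = 0.657), with overlapping values.

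**Figure D4:**
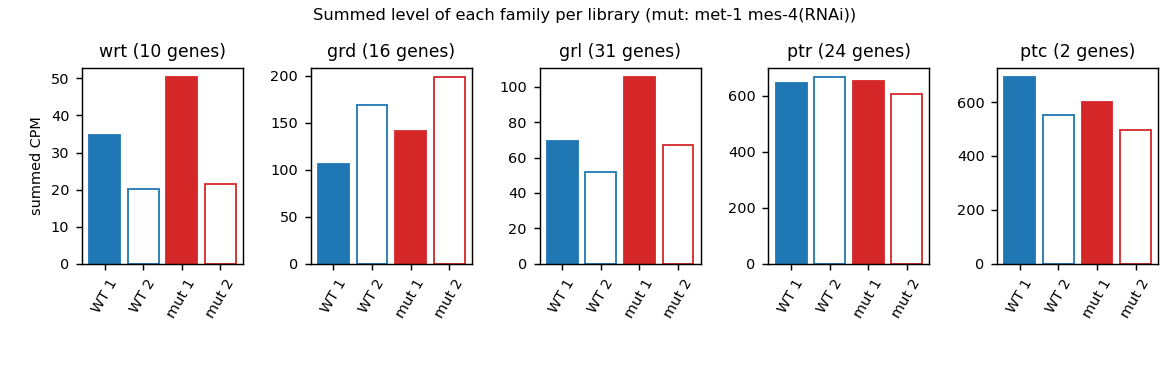
Summed level (CPM) of each gene family in the 4 libraries, with 1 bar for each library. The wrt sum is lower in both replicate 2 libraries (20.3 and 21.4 CPM) than in both replicate 1 libraries (34.7 and 50.3 CPM), and the grd sum is higher in both.

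On the receptor side, 7 of 24 ptr genes fell (ptr-2, ptr-4, ptr-10, ptr-13, ptr-18, ptr-22 and ptr-25) and ptr-12 rose. DESeq2 called 3 of these 7, ptr-2, ptr-4 and ptr-13. PTR-4 is needed for molting and for the matrix laid down before the cuticle, and ptr-4 was at 8.84 CPM in wild type and 10.02 CPM in mutant larvae in replicate 1 and at 5.07 and 2.04 CPM in replicate 2. Its log2 difference was -1.48 ± 0.30 (edgeR adjusted p = 0.0139, DESeq2 adjusted p = 0.000905), the widest of the class. The log2 difference of ptr-2, whose values stand above, was -1.17 ± 0.20 (edgeR adjusted p = 0.00754). In both genes the replicate 2 libraries lay below the replicate 1 libraries.

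The other calls in this class were smaller or rested on weak genes. For ptr-13 the levels were 38.3 and 60.2 CPM in replicate 1 and 31.01 and 36.2 CPM in replicate 2 (-0.52, adjusted p = 0.0166), and for ptr-22 they were 2.73 and 5.28 against 1.499 and 2.18 CPM (-1.09, edgeR adjusted p = 0.0156, DESeq2 adjusted p = 0.101). PTR-18 helps to keep neuroblasts quiescent in arrested L1 larvae, and ptr-18 was at 24.4 and 25.7 against 19.6 and 17.8 CPM (-0.42, edgeR adjusted p = 0.0254, DESeq2 adjusted p = 0.150). In each of these genes the replicate 2 libraries lay below the replicate 1 libraries. DESeq2 did not call ptr-10 (adjusted p = 0.389) or ptr-25 (adjusted p = 0.206). The 1 gene that rose, ptr-12, was at 98.5 and 80.4 CPM in replicate 1 and 125.8 and 100.5 CPM in replicate 2 (0.34, edgeR adjusted p = 0.0156, DESeq2 adjusted p = 0.0595).

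Of the Patched homologs, ptc-1 fell and ptc-3 was not called. The level of ptc-1 was 582 CPM in wild type and 499 CPM in mutant larvae in replicate 1, and 452 and 396 CPM in replicate 2 (log2 difference -0.35 ± 0.08, edgeR adjusted p = 0.0211, DESeq2 adjusted p = 0.0164). Both replicate 2 libraries were below both replicate 1 libraries. For ptc-3 the levels were 110 and 102.5 against 97.9 and 99.1 CPM (-0.11, adjusted p = 0.350). The abundant ptr-21 was at 92.8 and 91.7 CPM in replicate 1 and 106.8 and 106.3 CPM in replicate 2 (0.21, adjusted p = 0.0791).

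Split by level, the ligand-like genes that fell all had a mean under 20 CPM and those that rose all had 20 CPM or more. Of 31 with a mean under 5 CPM, 14 fell and 0 rose, against 10.4% of all genes at that level called lower and 1.34% higher. Without the genes that passed the filter through replicate 1 alone this was 9 of 23, against 8.95%. Of the 8 patched-related genes under 5 CPM, 2 fell. At 5 to under 20 CPM, 2 of 5 ligand-like and 3 of 7 patched-related genes fell (11.4% of all genes at that level) and 0 of either class rose (6.63%). At 20 CPM or more, 3 of 4 ligand-like genes rose (13.5% of all genes at that level called higher), while of 11 patched-related genes 3 fell and 1 rose (9.75% of all genes called lower). The ligand-like genes are mostly weak and the patched-related genes mostly not, so class and level cannot be told apart for most members.

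**Figure D5:**
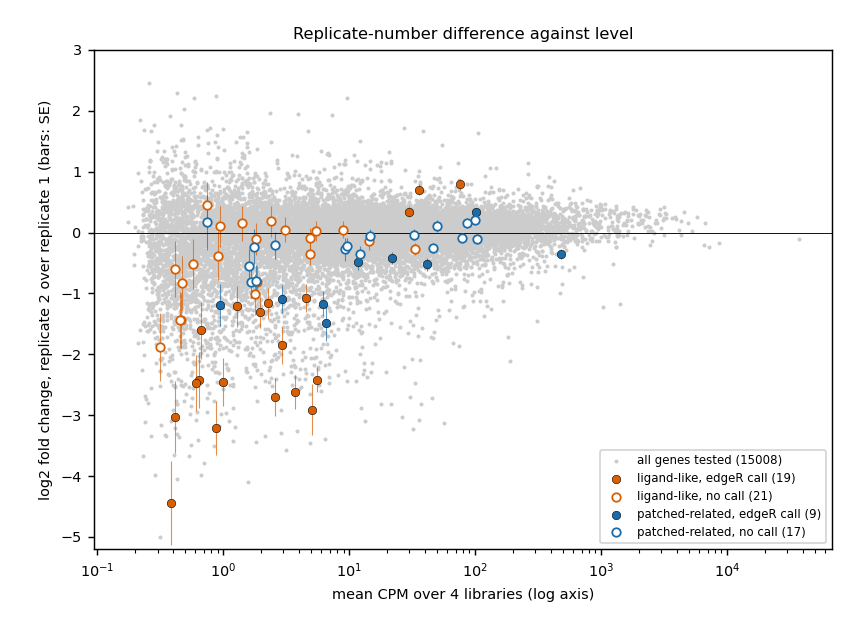
Log2 fold change of replicate 2 over replicate 1 (y axis) against mean level (x axis, log scale, CPM). Each point is 1 gene, with members in colour, and 3 other genes lie beyond the y axis. The ligand-like genes below -2 all have a mean under 10 CPM. Of these, grd-2, grd-6, grl-5, wrt-4 and wrt-8 passed the filter through replicate 1 alone.

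The replicate differences of the groups were also set side by side. The sign of the difference was the same in wild-type and mutant larvae for 33 of 40 ligand-like and 20 of 26 patched-related genes, against 73.3% of all genes. Across members, Pearson's r between the groups' replicate differences was 0.87 for 40 ligand-like genes and 0.66 for 26 patched-related genes. Over all 15008 genes it was 0.65. Genes are not independent replicates, and each point shares its libraries with all others. The ligand-like values hold the 8 genes that passed the filter through replicate 1 alone, whose signs had to be the same in both groups. The sign count and r were not redone without them.

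Markers of several tissues differed between the replicate numbers as well, where edgeR called 18% and DESeq2 8.13% of all genes. Epidermis markers divided in edgeR, which called all 5 tested. The cuticle collagens dpy-7 (log2 difference -2.21) and dpy-2 (-1.62) fell in replicate 2, and the regulators lin-26, elt-3 and elt-1 rose. DESeq2 called dpy-2 alone. The epidermis sum was 110.6 and 116.6 CPM in replicate 1 and 134.7 and 128.4 CPM in replicate 2, and the collagen gene rol-6 was at or near 0 throughout. Of 4 body wall muscle markers edgeR called 3 higher in replicate 2 and DESeq2 called 4. Their sums were 5126 and 5815 CPM in replicate 1 and 6470 and 7805 CPM in replicate 2. Of 4 tested seam markers edgeR called 1 higher (elt-6) and DESeq2 called 0, with sums of 74.7 and 72.8 CPM against 83.7 and 76.5 CPM. Of 4 glia markers 0 passed edgeR or DESeq2. edgeR called 1 of 5 intestine, 1 of 5 neuron and 1 of 4 pharynx markers higher in replicate 2. It called 0 of 4 germline markers, and 1 of 3 tested embryo markers lower (pes-10, -2.48). Of these, DESeq2 called only the neuron marker (rab-3) and pes-10. Between the groups edgeR called 0 of these markers, and DESeq2 called vit-6 and 1 muscle marker higher in mutant larvae. Of 5 genes listed for RNA of adults and oocytes, 3 were tested, cbd-1 and puf-5 fell, the sum was 60.9 and 40.0 CPM against 44.0 and 28.9 CPM, and vit-5 was at 0 in all libraries. The part of any of these tissues in the members' differences was not tested.

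Calls among the regulators of molting went both ways. Of 10 tested, edgeR called nhr-23 (0.68), nhr-25 (0.36), myrf-1 (0.70) and elt-3 (0.32) higher in replicate 2, and nhr-41 (-0.35) and grh-1 (-0.44) lower. Of all genes 7.61% were called higher and 10.4% lower. Not called were bed-3 (0.71), blmp-1 (0.34), nhr-85 (0.29) and lin-42 (-0.21). The list median was 0.33, against 0.01 for all genes, and elt-3 is also among the epidermis markers above. NHR-23 and MYRF-1 are transcription factors needed for molting. DESeq2 called myrf-1 alone, against 8.13% of all genes in either direction.

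A further list of 15 genes held ones tied to Hedgehog signalling in animals and related sterol-sensing proteins. It covers Dispatched-related, NPC1-related, SCAP-related, heparan sulfate and glypican genes. It also has the megalin homolog lrp-1, tra-1, acyltransferase homologs and protein kinase A. All 15 were tested. Between the groups edgeR called 0 of them (0% of all genes) and DESeq2 1 (4.36% of all genes). That gene was scp-1, the homolog of the sterol sensor SCAP, at 110.3 and 110.0 CPM in wild type and 74.8 and 69.9 CPM in mutant larvae. Its log2 difference was -0.61 (DESeq2 adjusted p = 0.00381, edgeR adjusted p = 0.105), and the groups were separate. Between replicate numbers 1 of 15 passed, in both edgeR and DESeq2, against 18% and 8.13% of all genes. It was hhat-1, a homolog of the acyltransferase that lipidates Hedgehog, at 1.71 CPM in wild type and 3.56 CPM in mutant larvae in replicate 1 and at 0.606 and 0.689 CPM in replicate 2 (-1.98, edgeR adjusted p = 0.00626, DESeq2 adjusted p = 0.0149).

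Positions of the members came from the WBcel235 annotation, and their spread over the chromosomes was not set against that of all genes. The ligand-like genes lie mainly on V (28 of 59), IV (12) and X (10), and the patched-related genes mainly on II (8 of 26) and I (7). A total of 12 members lie directly beside another member. Some neighbours went the same way between replicate numbers, as did wrt-1 with wrt-10, and grd-10 with grd-13 and grd-3. This was not general: grl-16 and ptr-21, separated by few genes on chromosome I, had opposite signs (-2.41 and 0.21), and the adjacent grl-8 and grl-9 on V had 0.05 and -0.82, neither of them called.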

How the data were processed

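The authors deposited raw counts per gene and a table of normalized log2 values. From the values themselves, each deposited log2 value is the log2 of a scaled count plus 8, with scaling factors of 0.887 to 1.07. The submitters' processing notes name the ce10 build. How reads were aligned and assigned to genes or strands was not given in the sources used here. Symbols (19182 identifiers), chromosomes and gene order came from the WBcel235 annotation, which is another build, so no coordinates are printed; no sequence was used.

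Counts were analysed in R 4.3.3 with edgeR 4.0.16: filterByExpr, TMM scaling (factors 0.962 to 1.04), glmQLFit and glmQLFTest, Benjamini-Hochberg adjustment over 15008 genes, threshold 0.05. The group comparison had no block. The replicate comparison had group as a term. The edgeR coefficient of variation was 22.1%. RPKM used the gene lengths in the count table. DESeq2 1.42.0 and limma 3.58.1 gave alternatives, as did other scalings, other filters and leaving out each library. DESeq2 gave no adjusted p for some weak genes, which were not counted as called. Per-gene within-group differences and medians used log2 CPM with a prior count of 2. Scripts were tested on simulated data. Figures were drawn with matplotlib 3.10.9.

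Per the series text, the 2 replicates of a group are independent biological replicates; p-values measure only the spread between these libraries. Values were given in every library for ptc-1, ptc-3, qua-1, hog-1 and, in each class, the 3 members with the highest RPKM and the 4 with the smallest edgeR p in either comparison. Other members named, such as the remaining called genes, were chosen after their values were seen. Members, lists and tests were chosen with earlier results of these data known.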

Additional observations from a re-analysis of the deposited data

How the results depend on the processing

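Between the groups, edgeR's 0 called genes became 655 in DESeq2, 128 with no filter, 2 with a filter of 5 CPM and 0 to 35 when 1 library was left out; no member was called in any of these. The replicate numbers rest on 2 pairs of libraries, and the labels do not say what the libraries of a pair share beyond the number. With a replicate block 3047 genes (20.3%) and 9 members were called, 7 of them higher in mutant larvae: grd-3, grl-4, grl-16, grl-21, ptr-13, ptr-22 and wrt-2 higher, ptr-2 and ptr-12 lower. The replicate differences of the 2 groups correlated at 0.65 over all genes.

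Between replicate numbers the 2700 genes became 1556 with a filter of 5 CPM and 1220 in DESeq2. The 28 members became 11 and 14 in that order. The 5 CPM filter left 9939 genes and 29 members to test, where the main filter left 15008 and 66. With no filter, 19152 genes were tested and 3640 called, 1947 of them lower. Of 82 members tested that way, 32 were called, 28 of them lower. Scaling by library size alone gave 617 genes higher and 1804 lower, against 1142 and 1558. The ligand-like median was -0.99 with that scaling, -0.14 with the 5 CPM filter (patched-related -0.28) and -0.80 to -0.74 within 1 group, and the patched-related median -0.44 to -0.26 within 1 group; these last are values with no test.

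Signs of group differences that were not called turned in some settings. For grl-7 they were -0.39 in limma-voom, -0.13 in limma on the deposited log2 values and -0.043 with the replicate block. For ptc-3 they were 0.0080 on the deposited log2 values and 0.0049 with library size only. For ptr-21 they were 0.038 in both of these and 0.029 with the 5 CPM filter. When 1 library was left out, the group difference ran from -0.18 to 0.78 for grd-10, -0.091 to 0.71 for grd-13, -1.06 to 2.22 for grl-16, -2.33 to 1.57 for grl-7, -0.13 to 0.031 for ptc-3, -0.13 to 0.091 for ptr-21, -1.77 to 0.52 for ptr-4, -0.071 to 1.37 for qua-1 and -1.08 to 2.48 for wrt-2. The cause was not tested. Members below the filter rest on few reads, which limits what these libraries can show for them.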
